A study of Arabidopsis thaliana with 12 samples.

Results

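The 170 genes described here are nuclear genes whose mRNA was lower on captured ribosomes after 1 h of darkness and higher again after 10 min of renewed light, while the same mRNA in total RNA was at most slightly lower in darkness. They were chosen by those values. The log2 level in ribosome-captured RNA had to be lower in dark than in light by at least 0.6, and higher in reilluminated than in dark seedlings by at least 0.4, in each of 2 replicates. The mean dark-minus-light difference in total RNA had to be above -0.3 on the log2 scale. The annotation used here does not list 8730 of the 22746 ATH1 probe sets tested, and genes found only on those could not be chosen. Within it, 13217 nuclear genes had a probe set paired with no other gene, of which 6101 had a mean log2 level of at least 6 over all arrays. Cytosolic ribosomal proteins, CHLM, LIL3:1, LIL3:2 and AT5G19510 were left out by the rule, which left 5986 genes, and the 170 members are 2.84% of these. In all, 184 genes met the numbers, and the 14 not kept were 11 cytosolic ribosomal proteins and 3 others, CHLM, LIL3:2 and AT5G19510.

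All groups were whole 14-day-old Arabidopsis thaliana seedlings of ecotype Col-0, grown on medium with sucrose and carrying 35S:HF-RPL18B. This transgene puts a His6-FLAG tag on ribosomal protein L18B under the near-constitutive 35S promoter of Cauliflower Mosaic Virus, so that the light controls carry it too and only ribosomes holding the tagged protein are captured. The light control stayed in light for 1 h, the dark seedlings were moved to darkness for 1 h from the midpoint of their day, and the reilluminated seedlings had the same darkness and then 10 min of light. From each extract, RNA bound to anti-FLAG beads (called IP RNA here, and ribosome capture in the plots) and total RNA of the clarified supernatant were each put on arrays, giving 6 groups of 2 arrays from independent replicate experiments, 12 arrays in all.

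Capture of a tagged ribosome recovers the mRNAs that ribosomes are carrying, so the level of an mRNA in IP RNA relative to total RNA is a measure of its ribosome loading. In green seedlings, an unexpected loss of light stops photosynthesis, and protein synthesis is known to be restrained within a short time and to resume quickly when light returns. Making ribosomes and other proteins is among the most costly uses of cellular energy, and the kinase SnRK1 is a known brake on such uses when energy is short.

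The replicates within each group correlated with r between 0.993 and 0.995, and array medians lay between log2 6.04 and 6.19. Of 8 green shoot marker genes, the annotation tied a probe set to 2 alone, RCA and PRK, with group means of 11.4 to 13.7. Of 8 root markers, 2 had such a probe set: PYK10 averaged 12.9 to 13.3 and EXPA7, a root hair gene, 4.51 to 5.72. The other markers were not looked at, which does not mean that the array lacks them. For actin, the 3' control probe set exceeded the 5' one, a sign of RNA quality, by log2 3.75 and 3.75 in light, 3.94 and 3.86 in dark and 3.59 and 3.79 in reilluminated IP RNA, and 3.72 to 4.59 over the total RNA arrays. In IP RNA the same measure for GAPDH was 0.92 and 1.33 in light, 0.90 and 1.02 in dark and 1.11 and 1.39 after reillumination, and for ubiquitin 1.52 and 1.43, 1.31 and 1.33, and 1.33 and 1.44. The dark IP arrays were thus higher than light for actin and lower on average for the other controls, and the part of RNA quality in the results was not tested. The arrays were scaled alike, so each value is relative to the rest of the array. In whole seedlings, less RNA per cell and fewer cells that hold it cannot be told apart.

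In IP RNA the members' dark-minus-light difference had a median of -0.86 on the log2 scale and ranged between -1.56 and -0.62. The difference between reilluminated and dark IP RNA had a median of 0.78, with a range of 0.45 to 1.73. In 38 of the 170 genes the dark IP level was lower than in light by 1 or more, which is 2-fold, and in 31 the reillumination difference was at least 1. Both held for 16 genes: AT1G28150, AT1G28410, AT1G51200, AT1G53030, AT1G70900, AT2G20725, AT3G05810, AT3G14595, AT3G24506, AT3G56680, AT3G57320, AT3G62190, AT4G13200, AT4G38490, AT5G52960 and AT5G64180. These values chose the genes and are given as a description. The members called lower in dark IP RNA by limma at an adjusted p under 0.05 were 168 of 170, where 8.68% of all probe sets were called lower, and those called higher on reillumination were 153, where 4.62% were; nothing is read from either count, since the rule used both contrasts.

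**Figure D1:**
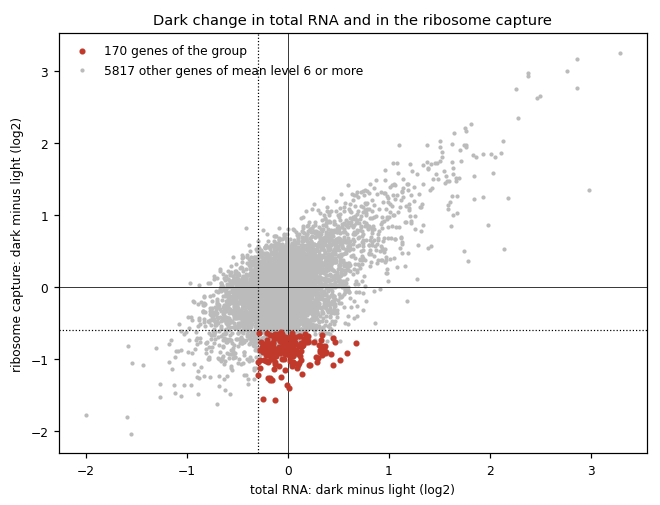
Dark-minus-light log2 difference in IP RNA plotted against that in total RNA, 1 point per gene, with the cuts of the rule as dotted lines. The 170 members are marked. The 5817 other nuclear genes shown had a mean of at least 6, did not meet the rule and were not cytosolic ribosomal proteins. The members lie between -1.56 and -0.62 in IP RNA and between -0.30 and 0.68 in total RNA, where the cuts place them.

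The cut in darkness runs through a continuous spread of values. In its weaker replicate, the dark-minus-light difference of AT3G20230 was -0.601, of AT5G66090 -0.603 and of AT2G20390 -0.605, just inside the cut. Just outside it, AT5G03345 had -0.595, AT4G37560 -0.593 and AT2G24290 -0.593. A further 31 genes met both IP conditions but not the condition on total RNA. Among the 170 members, 1 is measured by a probe set whose name marks possible cross-hybridization, AT3G26070.

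How far 1 replicate experiment alone finds the same genes can be read from the other. With the same conditions on replicate 1 alone, 218 genes were chosen, and 147 of them (67.4%) passed in replicate 2, where 335 of all 5986 genes (5.60%) did. Chosen on replicate 2 alone, 335 genes met the conditions, and 147 (43.9%) passed in replicate 1, where 218 of all genes (3.64%) did. Of the 218 genes chosen in replicate 1, 215 (98.6%) had the lower dark and higher reilluminated IP level also in replicate 2, with medians there of -0.83 for dark minus light and 0.76 for reillumination minus dark. The same direction was seen in replicate 2 in 38.3% of all 5986 genes. Of the 335 chosen in replicate 2, 321 (95.8%) had that direction in replicate 1, against 34.4% of all genes, with smaller medians there of -0.64 and 0.58.

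AT5G64180 had the largest differences of the group. Its log2 level in IP RNA was 8.29 and 8.71 in light, 6.83 and 7.04 in dark and 8.41 and 8.92 in reilluminated seedlings. In total RNA the levels were 8.06 and 8.20, 7.97 and 8.04, and 8.05 and 8.18 in the same order. Both dark IP arrays lay well below the other IP arrays, whereas the total RNA arrays of all conditions lay close together. The dark-minus-light difference in IP RNA was -1.56, a 2.96-fold lower level, and reillumination exceeded dark 3.32-fold.

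AT3G62190 encodes a protein with a DnaJ domain, the part by which co-chaperones engage Hsp70. Its IP level was 7.21 and 7.48 in light, 6.17 and 6.34 in dark and 7.75 and 7.87 after reillumination, against 8.23 and 8.08, 8.24 and 8.48, and 8.13 and 7.99 in total RNA. The reilluminated IP arrays lay above both light IP arrays, and every IP array lay below every total array. IP minus total was -0.81 in light, -2.11 in dark and -0.25 after reillumination, so the gene was the least loaded of the group in darkness.

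AT5G52960 had IP levels of 8.64 and 9.08 in light, 7.39 and 7.59 in dark and 8.94 and 9.17 after reillumination. Its total RNA levels were 8.49 and 8.82 in light, 8.37 and 8.93 in dark and 8.30 and 8.67 after reillumination. Dark IP arrays did not overlap the others, and the total arrays of all conditions overlapped. AT1G70900 had IP levels of 7.29 and 7.98 in light, 6.26 and 6.49 in dark and 7.52 and 8.01 after reillumination, with total RNA between 7.34 and 7.63 on every array. Its light IP replicates lay far apart, and both dark arrays were still lower.

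AT1G28150 had IP levels of 9.80 and 9.89 in light, 8.35 and 8.53 in dark and 9.60 and 9.75 after reillumination, while total RNA stayed between 8.97 and 9.21. AT3G57320 had IP levels of 7.94 and 8.41, 6.96 and 6.80, and 7.97 and 8.16 in the same order, with total RNA between 7.27 and 7.69. AT3G05810 had IP levels of 7.62 and 8.06, 6.80 and 6.62, and 7.80 and 8.02, with total RNA between 7.02 and 7.45. In these 3 genes IP RNA lay above total RNA in light, below it in dark and above it again after reillumination, by group means.

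AT3G14595 and AT2G20725 had reilluminated IP levels above their light levels. AT3G14595 measured 10.33 and 10.40 in light, 9.37 and 9.27 in dark and 10.76 and 10.85 in reilluminated IP RNA, and 10.45 to 10.98 in total RNA. AT2G20725 measured 8.08 and 8.40, 7.16 and 7.14, and 8.47 and 8.65 in IP RNA in that order, and 8.27 to 8.56 in total RNA. Light and reilluminated IP arrays did not overlap in either gene. Such ranges overlapped in 94 of the 170 members, so a lack of overlap was common in the group.

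A pair of genes with nucleic acid or zinc-binding domains returned close to their light levels. AT1G51200 encodes a stress-associated protein with A20 and AN1 zinc fingers, and its IP level was 11.43 and 11.46 in light, 10.44 and 10.31 in dark and 11.60 and 11.53 after reillumination, with total RNA at 11.19 to 11.52. AT3G56680 encodes a protein with an R3H domain, which binds single-stranded nucleic acid, and its IP level was 9.65 and 9.62, 8.44 and 8.33, and 9.53 and 9.42, with total RNA at 9.66 to 9.91. Reilluminated IP RNA was slightly above light for the first and slightly below it for the second, by 0.12 and -0.16.

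**Figure D2:**
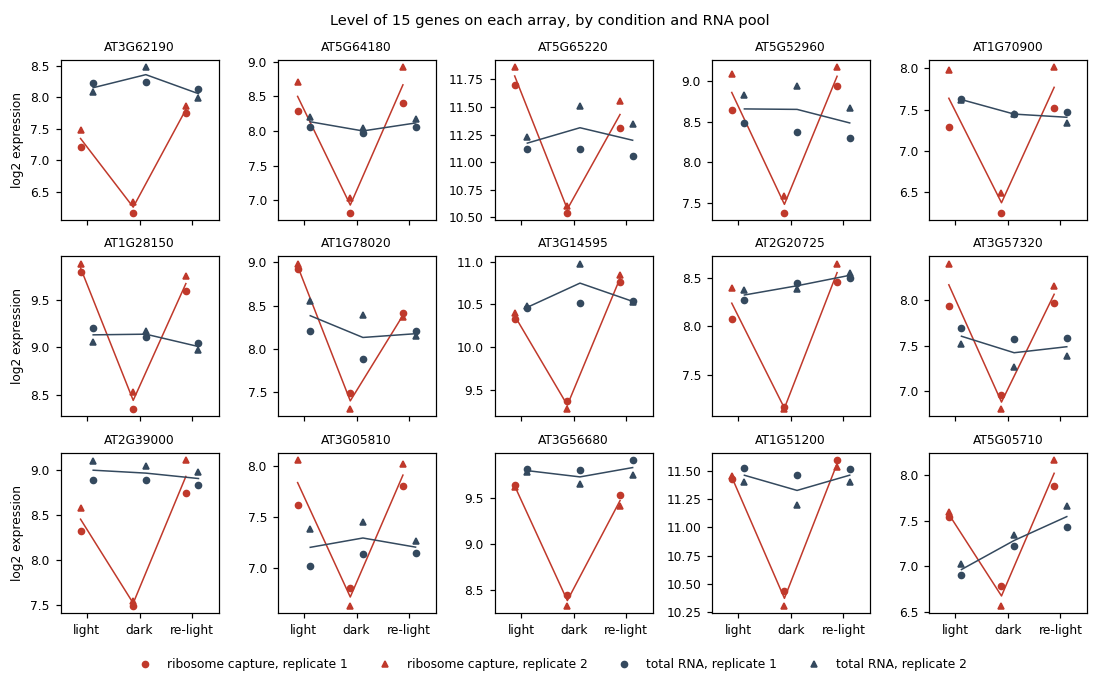
Log2 level on each array for the 15 members whose values are given array by array, in light, dark and reillumination (circles, replicate 1; triangles, replicate 2; lines join group means of IP and of total RNA). In each panel both dark IP arrays lie below all light and reilluminated IP arrays, as in all 170 members, which were chosen for lower dark IP levels. The total RNA line is comparatively flat in most panels, but in AT5G05710 it rises by 0.58 from light to reillumination.

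By role, the plastid translation genes held 4 members. Of these, 3 are ribosomal proteins of the chloroplast, a ribosome separate from the cytosolic one that is captured here: L29 (AT5G65220), L19 (AT4G17560) and L34 (AT1G29070). The last is a plastid translation initiation factor of the IF3 type (AT2G24060). AT5G65220 had IP levels of 11.70 and 11.86 in light, 10.54 and 10.60 in dark and 11.31 and 11.56 after reillumination, against total levels of 11.12 and 11.23, 11.12 and 11.51, and 11.05 and 11.34. Its reilluminated IP arrays stayed below both light arrays, and the dark-minus-light difference was -1.21 in IP and 0.14 in total RNA. AT4G17560 had -1.04 in IP and -0.13 in total RNA, AT1G29070 -0.91 and -0.20, and AT2G24060 -0.65 and -0.10. All 4 were lower in reilluminated than in light IP RNA by group means, with a median of -0.29.

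Thylakoid and chlorophyll genes made up 8 members, with a median dark-minus-light difference of -0.89 in IP and -0.16 in total RNA. AT1G74470, the geranylgeranyl reductase that makes the phytyl tail of chlorophyll, had -0.77 in IP RNA and 0.67 for reillumination minus dark. AT5G38520, known as a chlorophyll dephytylase, which removes that tail, had -1.03 and 0.99. AT4G17840, of a family that stabilises chlorophyll synthesis enzymes, had -0.71 and 0.46.

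AT5G08050, known for the organization of grana stacks, measured 11.48 and 11.30 in light, 10.26 and 10.23 in dark and 10.82 and 10.82 in reilluminated IP RNA. Its reilluminated arrays lay midway, above both dark and below both light arrays, and its reillumination-minus-light difference of -0.57 was among the lowest of the group. AT4G01150, a protein that curves thylakoid membranes at grana margins, had -0.84 and 0.70. NdhL, a subunit of the chloroplast NADH dehydrogenase-like complex, had -0.95 and 0.58, and AT2G26500, a small subunit of the cytochrome b6f complex, -0.83 and 0.68. THX, a plastid thioredoxin, had -0.99 and 0.87.

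Members acting in mitochondria or at the plastid envelope numbered 6. GLX2-5, a mitochondrial glyoxalase, measured 8.10 and 8.21 in light, 7.44 and 7.48 in dark and 8.47 and 8.74 in reilluminated IP RNA, and 8.89 to 9.17 in total RNA. Its reilluminated IP arrays lay above both light arrays, with a difference of 0.45 by group means. AT1G53030, a copper chaperone for cytochrome c oxidase, had -1.09 and 1.06 in IP RNA, but its dark total arrays read 5.94 and 7.37 and thus lay far apart. AT2G01090, a subunit of respiratory complex III, had -0.85 and 0.81, AT2G47690, a subunit of complex I, -0.81 and 0.51, and AT2G35795, a DnaJ-type part of the inner membrane import motor, -0.84 and 0.73. ATOEP16-4, an outer envelope channel protein, had -0.76 and 0.89.

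Enzymes that modify the N-terminus of new proteins were another 4. AT2G39000 is an N-terminal acetyltransferase of the plastid, and its IP level was 8.33 and 8.59 in light, 7.50 and 7.55 in dark and 8.75 and 9.11 after reillumination, with total RNA at 8.84 to 9.11. The reilluminated arrays did not overlap the light arrays, and reillumination minus light was 0.47. AT5G13780 and AT5G11340, catalytic subunits of cytosolic acetyltransferases that act beside the ribosome, had -0.70 and -0.96 for dark minus light and 0.89 and 0.98 for reillumination minus dark. PDF1A, a peptide deformylase of organelles, had -0.67 and 0.66.

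RNA-binding proteins numbered 5. LSM6B and LSM3B, subunits of the Lsm rings that act in mRNA decay and splicing, had dark-minus-light differences of -0.93 and -0.82 in IP RNA and -0.14 and 0.33 in total RNA. AT4G26480 and AT5G56140, which carry a KH domain, had -0.94 and -0.62, and AT2G37220, an RNA-binding protein of the chloroplast, -0.78. Reillumination minus dark lay between 0.56 and 0.91 for the 5.

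FLZ proteins, plant zinc finger proteins that bind the SnRK1 kinase, gave AT1G78020 and AT1G22160. AT1G78020 measured 8.93 and 8.99 in light, 7.50 and 7.31 in dark and 8.41 and 8.37 in reilluminated IP RNA, and 8.21 and 8.56, 7.88 and 8.39, and 8.21 and 8.15 in total RNA. Its reilluminated IP arrays lay below both light arrays and above both dark arrays. AT1G22160 had -0.92 for dark minus light and 0.78 for reillumination minus dark.

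The remaining members with a symbol in the annotation do unlike things. SCL21, a GRAS-family transcription regulator, had -0.96 for dark minus light in IP RNA and 0.69 for reillumination minus dark, and ASPGA1, an asparaginase, -0.91 and 0.89. SK18, an SKP1-like part of ubiquitin ligases, had -0.77 and 0.57, and CYN, a cyanase, -0.76 and 0.82. CUTA had -0.75 and 0.90, and WLIM2b, which bundles actin filaments, -0.65 and 0.80. Total RNA of the 6 differed between dark and light by -0.06 to 0.26.

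**Figure D3:**
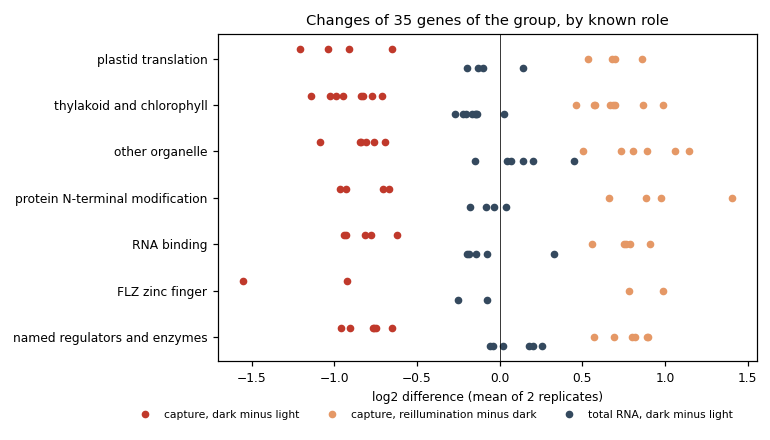
Differences of 35 members grouped by known role, 1 point per gene, for dark minus light and reillumination minus dark in IP RNA and dark minus light in total RNA (log2). All IP dark differences lie below -0.6 by the rule, and the ranges of the role groups overlap in the IP differences. In total RNA the 2 FLZ genes (-0.25 and -0.08) lie just below the named regulators and enzymes (-0.06 to 0.26). The gap is smaller than the standard error of the nearer FLZ gene, AT1G22160 (0.17), and neither FLZ difference was called.

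After 10 min of renewed light the IP level was near the light level in most members, and in most other genes too. Reillumination minus light in IP RNA had a median of -0.09 and lay within 0.3 of zero in 141 of 170 genes, above 0.3 in 10 and below -0.3 in 19. Both replicates were above light in 42 genes and below light in 88. The highest values were 0.49 for AT5G50335, 0.47 for AT2G39000, 0.46 for AT3G62190, 0.45 for GLX2-5 and 0.45 for AT5G05710. The lowest were -0.57 for AT1G73120, AT5G08050 and AT1G78020, -0.47 for AT4G16410 and -0.46 for AT2G21960. This difference is the sum of the 2 differences that chose the genes, so it too is a description. Its quartiles were -0.20 and 0.06 in the members. The 5817 other genes with a mean of at least 6 had a median of -0.005 and quartiles of -0.20 and 0.20. Lying near the light level was thus not particular to the members. The counts within 0.3 and in both replicates are not given for the other genes.

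The 38 members with a dark difference of 1 or more had a median reillumination-minus-dark difference of 0.93, against 0.78 in the 73 with 0.8 to 1 and 0.69 in the 59 with less. Their median reillumination-minus-light difference was -0.16, against -0.12 and -0.03. The bins share the dark arrays with the differences compared, so these medians are given without a test.

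Loading, the IP level minus the total level on the log2 scale, was above 0 in light in 82.4% of members, against 52.2% of the 5817 other genes with a mean of at least 6 that were not cytosolic ribosomal proteins and did not meet the rule. In dark it was above 0 in 12.9% of members and 55.8% of the others, and after reillumination in 86.5% and 53.4%. The members' medians were 0.45 in light, -0.48 in dark and 0.36 after reillumination, and those of the other genes 0.03, 0.07 and 0.04. In 114 members loading was above 0 in light, below 0 in dark and above 0 again after reillumination, while 22 were above 0 and 19 below 0 in all 3 conditions. The IP arrays that enter loading also chose the genes. The change of loading between dark and light was called lower in 63 members in the limma interaction fit, where 0.752% of all probe sets were, and that between reillumination and dark was called higher in 54, where 0.849% were; with the replicate as a block, 155 and 140 members were called, where 7.53% and 4.77% of all probe sets were called in either direction. Nothing is read from these counts.

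**Figure D4:**
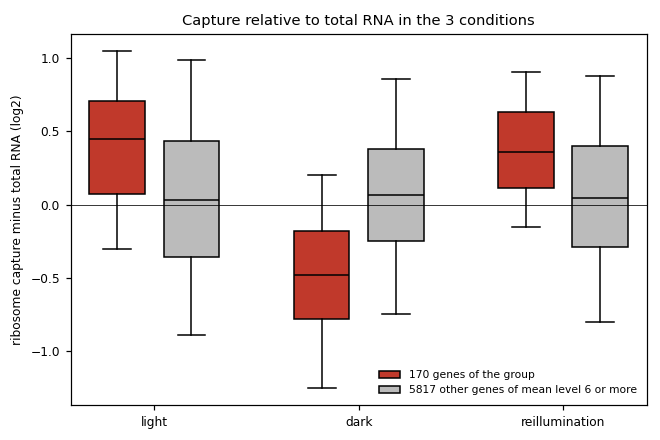
Loading (log2 IP minus total) in light, dark and reillumination, for the 170 members and the 5817 other genes with a mean of at least 6, with boxes for the quartiles, a line at the median and whiskers at 5% and 95%. The members' median is 0.45 in light, -0.48 in dark and 0.36 after reillumination, and that of the others stays between 0.03 and 0.07.

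Total RNA of the members was the measure least bound by the rule. Dark minus light was limited from below by the rule and had a median of -0.02, against -0.04 in the 5817 other genes. It lay within 0.3 of zero in 151 members and above 0.3 in 19. The highest differences were 0.68 for AT5G50335, 0.58 for AT2G21195 and 0.51 for AT1G21770. For AT5G50335 the dark total arrays read 8.30 and 8.94 and the light total arrays 7.96 and 7.93, while its IP difference was -0.78, so that its total RNA was higher and its IP RNA lower in dark. Called in total RNA between dark and light was 1 member, AT1G49170, where 9.46% of all probe sets were; with the replicate block 6 members were called, where 15.8% were. The rule used this contrast, so nothing is read from these counts.

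Reillumination minus light in total RNA was tested, although its light arrays also entered the rule through the condition on the dark total level. Its median was -0.05 in members and -0.02 in the other genes, and 153 members lay within 0.3 of zero. In limma's fit with Benjamini-Hochberg adjustment over 22746 probe sets, 1 of the 170 members was called, 0.588% of them, against 7.91% of all probe sets. At an unadjusted p under 0.05 there were 19 members (11.2%), against 19.4% of all probe sets. With the replicate experiment as a block, 6 members were called (AT5G05710, AT1G68660, AT2G21960, AT4G16410, AT5G20120 and AT5G54580), against 13.7% of all probe sets. The share of members was below the background in both fits. The light total arrays enter both the rule and this test, and the rule removed genes with clearly lower dark total RNA. Total RNA also differed little between reillumination and dark, so nothing is read from the lower share.

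AT5G05710 was the member called. Its total RNA was 7.43 and 7.66 after reillumination, against 6.90 and 7.03 in light, and 7.23 and 7.34 in dark. The reilluminated arrays lay above both light arrays, with a difference of 0.58 ± 0.13 (SE, n = 2 arrays each) and limma's adjusted p of 0.0201. Without 1 of the light total arrays the difference was 0.52 (adjusted p = 0.122, without replicate 1) or 0.65 (0.0690, without replicate 2), and without reilluminated replicate 2 it was 0.47 (0.170), so the call rests on these arrays.

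Reillumination minus dark in total RNA had a median of -0.02 in members and 0.02 in the other genes, and 160 members lay within 0.3 of zero. With limma, 0 members were called at an adjusted p under 0.05, as were 0% of all probe sets, and 4 members (2.35%) had an unadjusted p under 0.05, against 4.31% of all probe sets. With the replicate block 0 members were called and 12 probe sets in all. In total RNA both dark arrays lay below every light and reilluminated array in 11 members (6.47%), against 643 of the other genes (11.1%); the condition on the dark total level removed some genes with that pattern from the members, so nothing is read from the difference. The standard error of a difference for the members ranged between 0.10 and 0.36 on the log2 scale, so small differences were not detectable with 2 arrays a group.

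**Figure D5:**
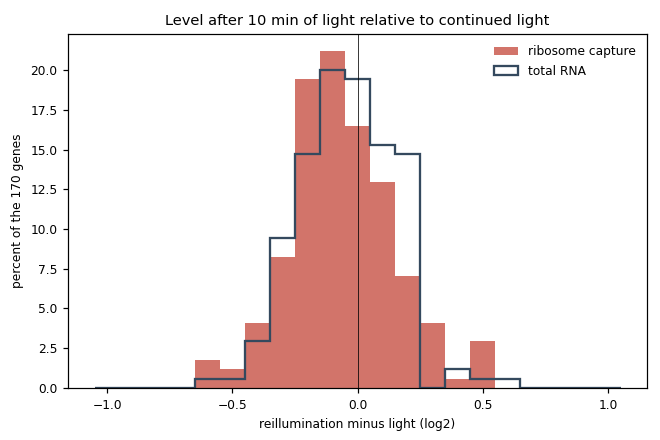
Distribution of the reillumination-minus-light log2 difference over the 170 members in IP RNA and in total RNA. The medians are -0.09 in IP and -0.05 in total RNA, and 141 genes in IP and 153 in total RNA lie within 0.3 of zero.

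A gene of the lists below counts as measured where the annotation ties a probe set to it alone. The annotation leaves out 8730 probe sets, and the counts and medians cover a part of each list. Most measured genes of the same pathways that did not meet the rule were not called in dark IP RNA, where 17.2% of all probe sets were called in either direction. The members, chosen for their lower dark IP level, were left out of these counts. That choice lowers the number of calls among the rest, so nothing is read from how few there were. Of 40 listed plastid ribosomal proteins, 10 were measured, 3 of them members. Of the other 7 measured, none was called lower in dark IP RNA, with a median of -0.24. The exception in direction was AT5G24490, a plastid protein that binds idle ribosomes, which rose in dark IP RNA by 0.94 ± 0.13 (limma, adjusted p = 0.000456, SE, n = 2). Of 7 plastid translation factors 2 were measured, AT2G24060 among the members and FUG1, the plastid initiation factor IF2, with no call.

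Of 21 ribosome biogenesis genes, 9 were measured, none a member. AT3G15460 fell in dark IP RNA by 0.66 (limma, adjusted p = 0.00683) and in dark total RNA by 0.63 (0.0148), and both calls were lost without replicate 2 of the light arrays (0.0549 in IP, 0.134 in total RNA) or of the dark arrays (0.0723 and 0.120). DIM1A rose in IP RNA by 0.78 between reillumination and dark (limma, adjusted p = 0.00383), with a dark-minus-light difference of -0.14. With the replicate block, 25.2% of all probe sets were called in either direction for dark minus light in IP RNA. Of the 9 genes, 3 were called there, all lower. Of the 7 plastid ribosomal proteins 3 were called with the block, AT5G24490 higher and AT2G43030 and AT5G47190 lower.

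Of 17 chlorophyll synthesis genes 6 were measured, the member AT1G74470 and 5 others with no call and a median of -0.00 in IP RNA. Of 28 nuclear photosystem and thylakoid transport genes 6 were measured, none called, with a median of -0.16. Of 10 nuclear respiratory chain genes 8 were measured, and AT4G37830 and AT4G32470 fell in dark IP RNA by 0.57 and 0.52 (limma, adjusted p = 0.00439 and 0.00528). Both also rose after reillumination by 0.49 and 0.50 (0.0234 and 0.0156), where AT4G37830 lost the call without either dark IP array or reilluminated IP replicate 2 (adjusted p up to 0.180) and AT4G32470 without any 1 of the dark or reilluminated IP arrays (up to 0.107). The rule asks for a fall of 0.6 in each replicate, which AT4G37830 reached in replicate 2 only and AT4G32470 in neither. With the replicate block 4 of the 8 were called lower in dark IP RNA, set against the same 25.2%, which counts both directions.

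For the lists written with the values known, 9 other N-terminal modification genes gave no call in dark IP RNA, with a median of -0.06. Of 10 other FLZ genes, 6 had a mean of at least 6 and so could have been members, and 3 of the 10 fell: AT2G44670 by 1.07 (limma, adjusted p = 0.000250), AT5G47060 by 0.71 (0.0121) and AT5G20700 by 0.71 (0.0133). AT5G47060 lost the call without light or dark IP replicate 2 (adjusted p up to 0.113), and AT5G20700 without light IP replicate 1 or dark IP replicate 2 (up to 0.116). AT2G44670 fell in dark total RNA as well, by 0.63 (0.0103), which places it outside the rule; without dark total replicate 1 or light total replicate 2 that call was lost (adjusted p up to 0.0853). It rose after reillumination in IP RNA by 0.54 (0.0294), a call lost without any 1 of the 4 dark and reilluminated IP arrays (up to 0.177). With the block 4 of the 10 were called lower, AT1G19200 being the fourth, against 25.2% of all probe sets called in either direction. No measured gene of any of these lists outside the members had a called change of loading in the limma fit without the block. Of all probe sets, 1.09% were called between dark and light and 0.994% between reillumination and dark. The members, chosen on arrays that enter loading, were left out, so nothing is read from the lack of calls.

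The members lay on all 5 chromosomes, with 48, 31, 31, 22 and 38 genes on chromosomes 1 to 5, which is 2.47% to 3.60% of the genes that could be chosen there. Among protein-coding genes in order, 2 pairs of members were neighbours, AT2G04890 (SCL21) with AT2G04900 and AT3G02690 with AT3G02700. How many pairs as many genes drawn at random would give was not computed.

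The 11 cytosolic ribosomal proteins that met the same numbers had a median dark-minus-light difference of -0.73 in IP RNA and 0.08 in total RNA, and 0.57 for reillumination minus dark. Their median reillumination-minus-light difference in IP RNA was -0.23, against -0.09 in the 170 members. The genes were chosen on these arrays in both cases, so the difference is a description.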

How the data were processed

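Affymetrix ATH1 arrays of IP and total RNA were used. The authors deposited log2 values for each probe set, made with RMA and affy per the submitters' processing notes, with versions not stated; RMA makes array distributions alike, so each change is relative to the array. The genome build is not given in the sources used here. Of 22810 probe sets, 64 controls were set aside and 22746 tested; 13513 are paired with 1 gene, 503 with several and 8730 are not listed in the platform annotation, and 13436 were matched to a gene table of assembly TAIR10.1. A gene with several probe sets is represented by the one whose name marks the least cross-hybridization. Where the probe set of highest mean was taken instead, the number of members was the same.

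A model of 6 group means was fitted with limma 3.58.1 (R 4.3.3; 6 residual and 5.48 prior degrees of freedom), two-sided, with Benjamini-Hochberg adjustment at 0.05. Errors are standard errors of the fit. The labels describe 2 independent replicate experiments; deviations of same-numbered arrays correlated at 0.290 to 0.510 in all pairs of groups, so the replicate was also fitted as a block. Figures used Python 3.11.15 and matplotlib 3.10.9. The limma fit was tested on simulated data for reillumination minus light in total RNA, with noise that was independent between arrays. The rule, the loading contrasts and the block were not tested in this way. Precision is limited by 2 arrays a group.

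Per-array values are given for AT3G62190, AT5G64180, AT5G65220 and the 12 further members with the largest mean of light minus dark and reillumination minus dark in IP RNA. Arrays are also given for some others in the role groups, such as GLX2-5 and AT5G08050, chosen with their values known. Members with a symbol or in a list are named, with at most 4 called non-members a list. The members and all lists were chosen with earlier results of these data known, and the role groups, the N-terminal modification list and the FLZ list with these values known. Of the members, 13 have a symbol in the annotation; other roles are background knowledge of the locus. Alternatives were the block, leaving out each array, median centring, a level filter, a mean-variance trend and other cuts of the rule; running them on the called list genes outside the members was added after seeing the data. No sequence of any member is printed.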

Additional observations from a re-analysis of the deposited data

How the results depend on the processing

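Cuts of -0.8 and 0.6 gave 56 members and cuts of -0.4 and 0.3 gave 369, and a rule on 1 replicate alone gave 218 or 335; a total RNA cut of -0.15 gave 129, and centring on medians 205. With the replicate as a block, 6 members were called in total RNA between reillumination and light, and over all probe sets 3111 were called there, 12 between reillumination and dark in total RNA and 3430 between reillumination and dark in IP RNA; 5743 were called between dark and light in IP RNA, against 3904 without the block. Leaving out 1 array, the called members in total RNA between reillumination and light numbered 0 to 3. The counts over all probe sets were 837 to 1884 for that comparison, 0 to 5 for reillumination minus dark in total RNA, 2124 to 4044 for dark minus light in IP RNA and 431 to 1865 for reillumination minus dark there. The members' median in total RNA between reillumination and light, -0.0452, was -0.0626 to -0.0183 without 1 array and -0.0280 after centring. The cause of these shifts was not tested; fewer arrays lower the degrees of freedom. Of 240 values of the 15 genes named by array in total RNA between reillumination and light, 227 were not called. The called values were all of AT5G05710. The 2 arrays a group limit what was detectable, and RMA hides a loss or gain of all mRNA together.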
